A study of Bos taurus with 20 samples.

Results

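The FGF genes described here are 9 of the 21475 probes of a cattle array, each chosen by its probe name: the ligands FGF1, FGF10 and FGF18, the receptors FGFR1 and FGFR2, the binding protein FGFBP1, the feedback inhibitors SPRY2 and DUSP6, and the target gene ETV4. The study measured total RNA from skin of cattle that differ in horn type, with 2 RNAs hybridised to each Agilent array in different dyes. Polled animals have no horns, scurred animals carry loose, rudimentary horns, and horned animals have horns fixed to the skull. Skin was taken from the region of the skull where a horn forms, and the pieces held epidermis, dermis and the connective tissue below it. There were 4 polled animals (1 male, 3 female), 4 scurred animals (3 male, 1 female) and 3 horned animals (2 male, 1 female). From polled replicate 3 and scurred replicate 2, both female, skull skin away from the horn site was measured too. Age, breed and polled genotype are not given in the labels used here. Each of chips 1 to 4 joined a polled, a scurred and a horned animal, and horned replicate 2 served on chips 2 and 4. The polled animal differed in sex from the scurred one on 4 of 4 chips and from the horned one on 3 of 4, while scurred and horned animals differed in sex on 1.

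Fibroblast growth factors are secreted proteins that bind, together with heparan sulfate, to receptor tyrosine kinases of the FGFR family. The receptors signal through RAS and the MAP kinases to ETS transcription factors such as ETV4, and the same signal induces Sprouty proteins and DUSP6, which damp it. In skin, ligands made by the mesenchyme and receptors of the overlying epithelium are known from the formation of hair follicles and other appendages.

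Each probe is 60 bases long and stands for its gene by this stretch alone, so splice forms of the receptors were not told apart. The first 4 sequences are those of the genes whose levels did not overlap between polled and horned animals, FGF10 whole and the others by their first 30 bases. The next 3 hold AATAAA, the common signal near the 3′ end of a messenger RNA, which is in capitals. The last 2 are further probes, described below with ETV4 and FGF18. They are given 5′ to 3′ as in the scanner files.
FGF10: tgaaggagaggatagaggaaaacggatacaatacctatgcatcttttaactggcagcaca
FGF18: ccagaggaggacttgaatgaggaaaacgac
FGFR2: tttcaaaacaccttctcactctgctctggc
SPRY2: aggcatcttacagattttgccccttttatg
FGFR1: agtttaggtccctcAATAAAaattgctgct
FGFBP1: cccaattaagatAATAAAgccctgtgcctt
ETV4: ctgccagatcctAATAAAggcccctgcttc
ETV4, second probe: caggctctggggtatccagaagaaccggcc
FGF18-like probe: gggtttcaccaagagcctcttgaaggtgct
AATAAA, searched on the printed strand, was in 3 of the 9 FGF probes and in 11.8% of all probes (2536 of 21475). The build behind the probe design is not given in the sources used here, so no genome positions are printed.

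Per array and dye, 62.2% to 73.7% of spots gave a signal well above background, and at most 2 were saturated. Of the FGF probes, 8 were well above background in all 11 animals. FGF10 was the dimmest by median intensity, at 149 over a local background of 67. It was well above background in 10 of 11 animals, all but scurred replicate 1. No spot of the 9 probes was flagged or saturated, and their values with dyes exchanged differed by a median of 0.04 to 0.30 on the log2 scale. Scurred replicate 1 stood apart from the other animals over all probes, with a mean correlation of 0.923 against 0.949 to 0.965 for the other 10. Chip 1 was scanned on another day than chips 2 to 4. In what follows, a level is a log2 channel intensity of 1 animal, and a difference is a log2 ratio. Levels of different genes come from different probes and cannot be set against each other.

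In skin of the horn-forming region, polled animals had less FGF10 and FGF18 and more FGFR2, FGFBP1, SPRY2, DUSP6 and ETV4 than the horned animal of their chip on 4 of 4 chips. None of these differences passed the test across all probes. In limma with Benjamini-Hochberg adjustment, 0 of 9 FGF genes passed an adjusted p of 0.05, with adjusted p from 0.432 to 0.791, against 0.00636% of the 15712 probes tested (1 probe). At an unadjusted p under 0.05 stood 5 of 9, with 3 higher against 4.78% of all probes and 2 lower against 4.53%. One sign on every chip was seen for 5 higher genes against 14.2% of probes and for 2 lower genes against 13.1%. The levels of polled and horned animals did not overlap for 4 of 9, namely FGFR2 and SPRY2 (higher, as for 4.68% of probes) and FGF10 and FGF18 (lower, as for 5.03%). The median absolute difference was 1.03 over the FGF genes and 0.17 over all probes. The FGF genes were chosen with earlier results of these data known, so these shares are not a test of the set. These are whole biopsies, in which fewer cells of a type and less RNA per cell cannot be told apart. The animals are separate by their labels, so the spread is that between animals.

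**Figure D1:**
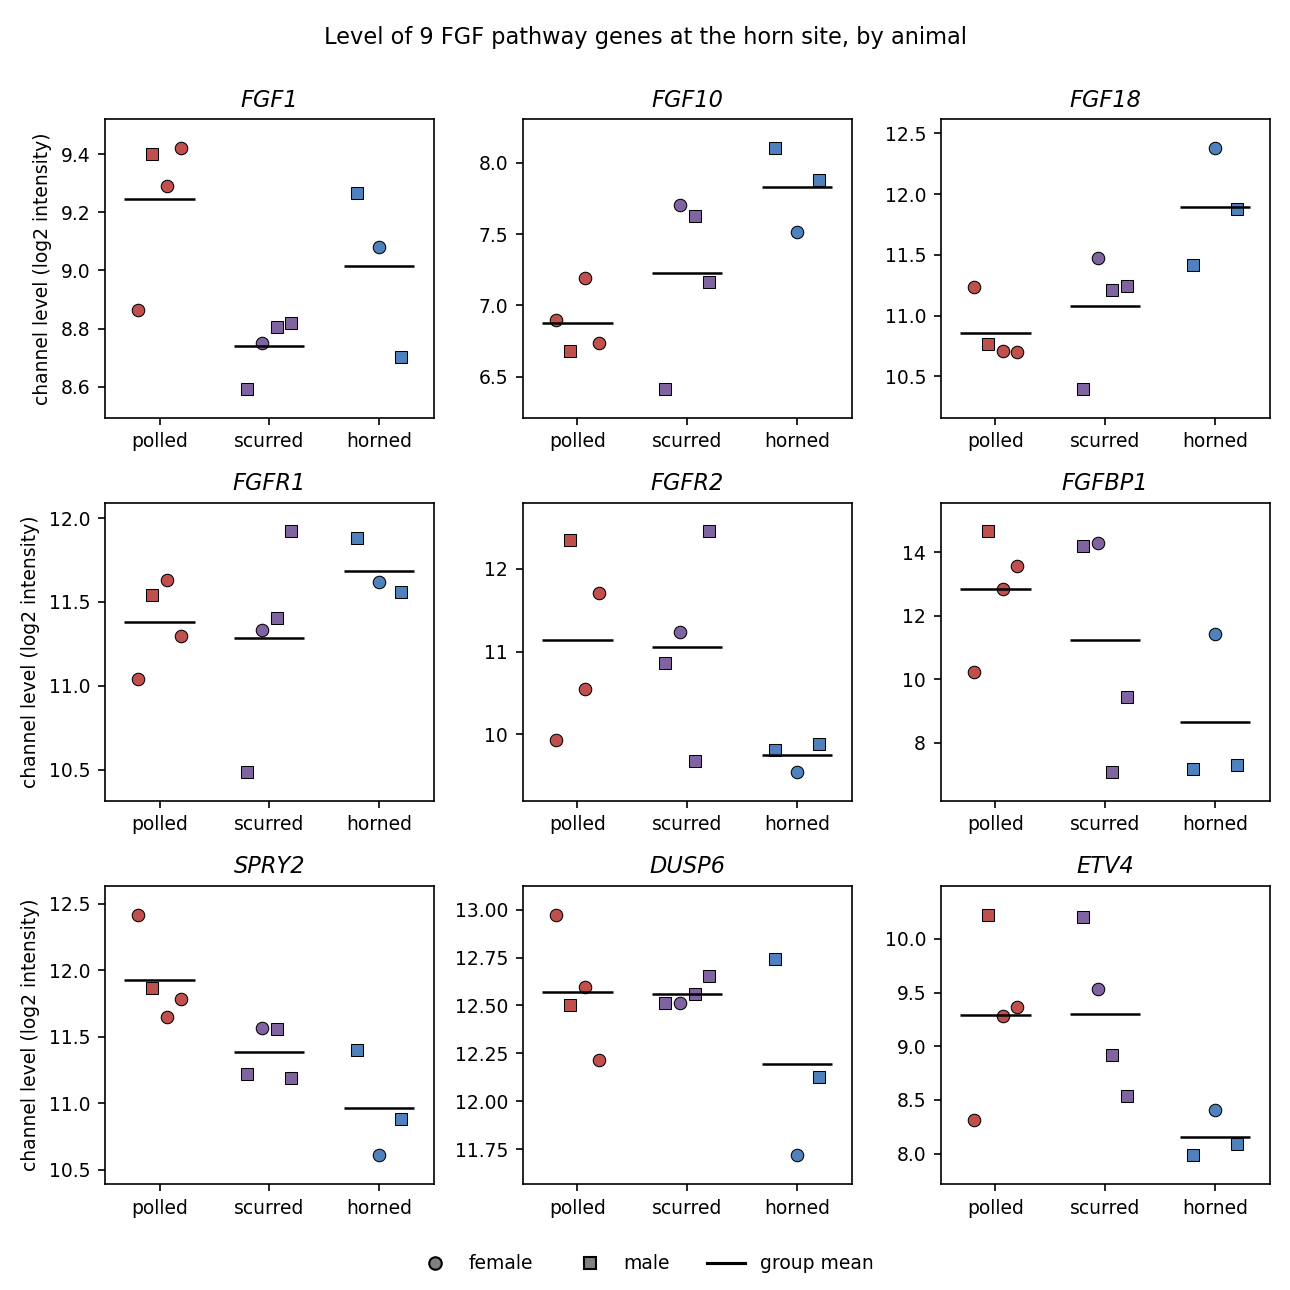
Level of each gene (vertical axes, log2 channel intensity, a scale per gene) in 4 polled, 4 scurred and 3 horned animals, with circles for females, squares for males and a line at each group's mean. FGF10 and FGF18 lie lower in all polled than in all horned animals, and FGFR2 and SPRY2 higher, while the other genes overlap.

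FGF18, a ligand known from skeletal growth and from the resting phase of the mouse hair cycle, had levels of 11.24, 10.77, 10.71 and 10.70 in polled replicates 1 to 4. Horned replicates 1 to 3 had 11.42, 12.38 and 11.88. All 4 polled levels lay below all horned levels, with polled replicate 1 the nearest to them. On chips 1 to 4, FGF18 differed by −0.18, −1.59, −1.13 and −1.69 between the polled and the horned animal. The fitted difference was −1.23 (SE 0.282, 95% interval −1.89 to −0.56), a 2.34-fold lower level in polled skin, with an adjusted p of 0.432 in limma. A larger absolute difference was found for 3.02% of all probes. Leaving out 1 chip or animal at a time gave −1.49 to −1.09, each at an unadjusted p under 0.05. The array holds a further probe, A_73_113279, that the file describes as similar to an FGF18 precursor, and whose identity is uncertain. It was dim, with a median intensity of 133, and stood at −0.48 (SE 0.122, adjusted p 0.463 in limma), lower in the polled animal on 4 of 4 chips.

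FGF10, the mesenchymal ligand that in the mouse is needed for limb and lung buds and acts on the epithelial form of FGFR2, had levels of 6.90, 6.68, 7.19 and 6.74 in polled replicates 1 to 4. In horned replicates 1 to 3 the levels were 8.10, 7.51 and 7.88. Every polled level lay below every horned one. The differences within chips 1 to 4 were −1.14, −0.94, −0.74 and −0.65, an even set with an SD of 0.22. The fit gave −1.03 (SE 0.324, 95% interval −1.79 to −0.26), with an adjusted p of 0.486 in limma. The size for this dim probe moved with the processing, as the deposited processed signals gave −2.27. It was −0.51 without chip 2, −0.91 without polled replicate 2 and −1.06 without chip 3, each no longer at an unadjusted p under 0.05. Without horned replicate 2 it was −1.58.

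FGF1, a ligand that binds all FGF receptors, overlapped between the groups, with levels of 8.87 to 9.42 in polled and 8.70 to 9.27 in horned animals. Its fitted difference was 0.22 (SE 0.172, 95% interval −0.18 to 0.63), higher on chips 2, 3 and 4 and lower on chip 1.

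FGFR2, the receptor whose epithelial splice form is expressed by keratinocytes, had levels of 9.94, 12.35, 10.55 and 11.71 in polled replicates 1 to 4. The 3 horned animals lay close together at 9.81, 9.55 and 9.88. The polled animals were spread widely, and the lowest of them, replicate 1, stood just above the highest horned animal. Within chips 1 to 4 the differences were 0.11, 2.72, 0.66 and 2.24. The fit gave 1.56 (SE 0.423, 95% interval 0.56 to 2.55), a 2.94-fold higher level in polled skin, with an adjusted p of 0.469 in limma. That value was 2.47 without chip 2, 0.96 without horned replicate 2 and 1.18 with no term for sex, the last 2 no longer at an unadjusted p under 0.05.

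FGFR1, the receptor found in dermal as well as epidermal cells, had levels of 11.04 to 11.63 in polled and 11.56 to 11.88 in horned animals, which overlapped. The fitted difference was −0.29 with a 95% interval of −0.98 to 0.41, and it was 0.00159 without horned replicate 1.

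FGFBP1, a secreted protein of epithelia that carries FGFs out of the heparan sulfate matrix, had the widest spread of the 9 genes. Its levels were 10.23, 14.66, 12.85 and 13.58 in polled replicates 1 to 4. They were 7.18, 11.43 and 7.30 in horned replicates 1 to 3. The probe was dim in horned replicates 1 and 3, the horned animals of chips 1 and 3. Its lowest spot intensity was 97.7, over a median local background of 68. Polled replicate 1 lay below horned replicate 2, so the groups overlapped, although within chips the polled animal was higher by 3.25, 3.29, 5.46 and 2.04. The fit gave 3.36, a difference that 0.0318% of all probes exceeded in size, but with an SE of 1.85 (95% interval −1.01 to 7.72) and an adjusted p of 0.599 in limma. It was 0.96 without polled replicate 2 and 0.97 without chip 2.

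SPRY2, a Sprouty protein that blocks signalling from the receptor to RAS, had levels of 12.42, 11.86, 11.65 and 11.79 in polled replicates 1 to 4. Horned replicates 1 to 3 had 11.40, 10.61 and 10.88. All polled animals lay above all horned animals. The differences on chips 1 to 4 were 1.09, 1.29, 0.76 and 1.16, with an SD of 0.23. The fit gave 1.01 (SE 0.252, 95% interval 0.41 to 1.60), a 2.01-fold higher level in polled skin, with an adjusted p of 0.463 in limma. Leaving out 1 chip or animal gave 0.71 to 1.23, and the lowest, without horned replicate 2, was no longer at an unadjusted p under 0.05.

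DUSP6, a phosphatase that switches off the kinase ERK, followed with smaller differences of 0.24, 0.69, 0.50 and 0.56 on chips 1 to 4. Its levels of 12.21 to 12.97 in polled and 11.72 to 12.74 in horned animals overlapped. The fitted difference was 0.47 (SE 0.187, 95% interval 0.03 to 0.91, adjusted p 0.525 in limma). It was 0.21 without horned replicate 2 and 0.72 without chip 2. The unadjusted p was no longer under 0.05 in 10 of the 15 fits that left out 1 chip or animal, and in 3 of 8 other settings: median centring, the deposited processed signals and the fit with no chip block.

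ETV4, an ETS transcription factor induced by FGF signalling, had levels of 8.32, 10.23, 9.28 and 9.36 in polled replicates 1 to 4 and of 7.99, 8.40 and 8.09 in horned replicates 1 to 3. Only polled replicate 1 lay within the horned range. The differences on chips 1 to 4 were 0.38, 1.72, 1.16 and 0.99, and the fit gave 1.18 (SE 0.512, 95% interval −0.03 to 2.38, adjusted p 0.546 in limma). It was 0.49 without chip 2 and 0.58 without polled replicate 2. The second ETV4 probe, A_73_119163, was well above background in 8 of 11 animals and gave 0.39 (SE 0.239), higher on 3 of 4 chips, so the probes differed in size.

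**Figure D2:**
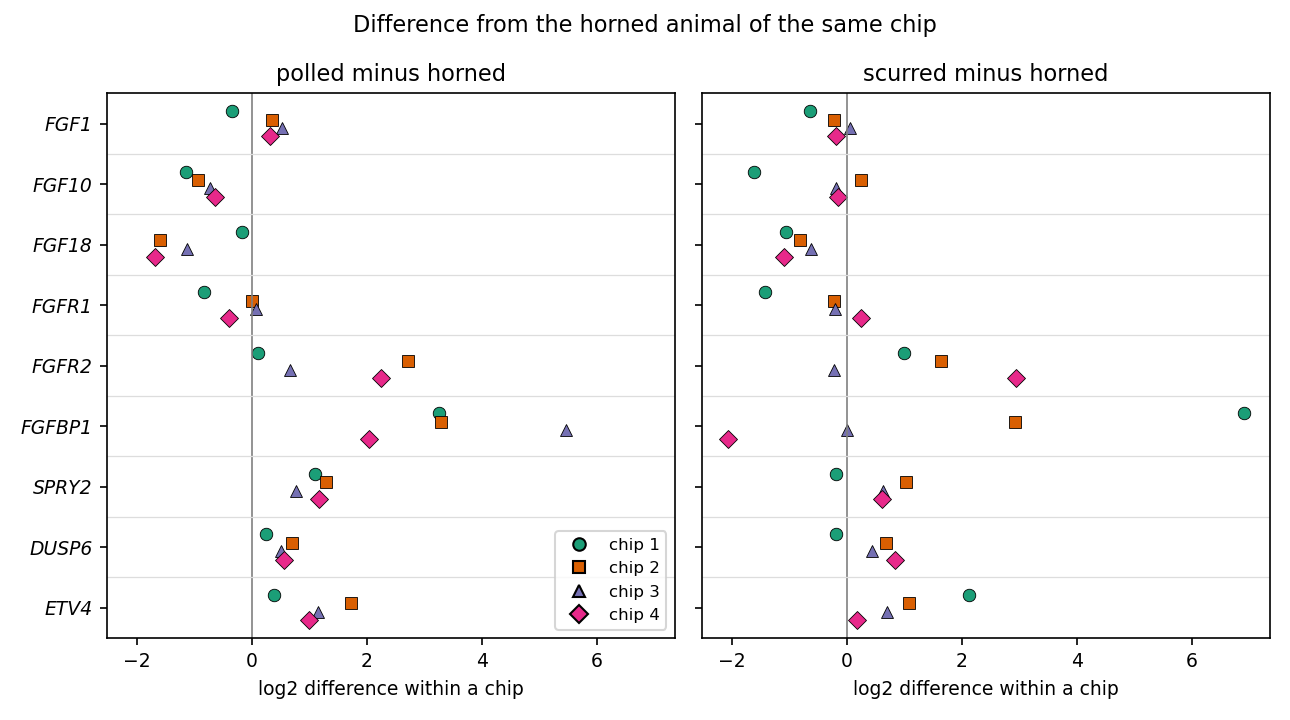
Log2 difference from the horned animal of the same chip (horizontal axes), for the polled animal (left) and the scurred animal (right), with 1 symbol per chip. Polled animals show 1 sign on all 4 chips for 7 genes, and scurred animals for FGF18 and ETV4.

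Markers of the layers of skin were read as lists in the same fit, and their values are given for each list. In the polled animals, 0 of 15 dermal fibroblast genes stood higher than in horned animals, with a median fitted difference of −1.05 and 7 of 15 lower at an unadjusted p under 0.05. The list's summed level was 17.13 to 18.26 in polled, 17.61 to 19.02 in scurred and 18.56 to 18.86 in horned animals, so polled animals lay below horned ones. Its median on chips 1 to 4 was −0.87, −1.50, −0.19 and −0.51 in the polled animal, negative on the same 4 chips as FGF10 and FGF18, the ligands lower in polled skin. All 15 were well above background in every animal, COL1A1 and COL1A2, the chains of type I collagen, among them.

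Most epidermal markers had positive differences in polled animals, as FGFR2, FGFBP1, SPRY2, DUSP6 and ETV4 did, but few had an unadjusted p under 0.05. For basal keratinocytes, 11 of 12 genes were higher (median 0.65), 1 of them at an unadjusted p under 0.05, with summed levels of 16.96 to 18.74 in polled, 15.68 to 19.43 in scurred and 15.63 to 16.29 in horned animals. KRT5 and KRT14, the keratins that define these cells, were well above background in 11 of 11 animals. For the upper epidermis, 10 of 10 genes tested were higher (median 1.93), 1 of them at an unadjusted p under 0.05, with summed levels of 13.22 to 17.42 in polled, 12.08 to 18.92 in scurred and 12.38 to 14.23 in horned animals. Its markers KRT1 and KRT10 were well above background in 7 and 11 of 11 animals.

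Hair follicle markers stood higher in 11 of 13 genes (median 1.01), with 6 higher at an unadjusted p under 0.05 and summed levels of 12.90 to 15.08 in polled, 12.99 to 13.80 in scurred and 13.12 to 13.27 in horned animals. The list's median was 2.15 in polled replicate 2 and 1.10 in polled replicate 4, the 2 animals with the highest FGFR2 levels of the polled group, against 0.07 and 0.02 in polled replicates 1 and 3. Of its defining markers, KRT25 was well above background in 11 animals and KRT27 in 5. KRT25 stood lower, at −2.41 to −0.07 in the 4 polled animals, as did MSX2, at −0.89 to −0.08, while KRT27 stood at 0.02 to 4.88. Scurred replicate 4 had an FGFR2 difference of 2.94 with a hair follicle median of −0.00444. In the remaining lists of markers, the median of polled minus horned was 0.49 for the sebaceous gland (5 of 7 genes higher), −0.51 for smooth muscle (0 of 6), −0.26 for endothelium (1 of 10), −0.05 for cartilage and bone (3 of 8), −0.08 for leukocytes (5 of 10) and −0.42 for adipocytes (1 of 4). Among the leukocyte genes, 2 higher and 2 lower had an unadjusted p under 0.05. One of these, AIF1, a gene of macrophages named here after its value was seen, stood at −1.71 (adjusted p 0.0199 in limma) and was the 1 probe of the array that passed. The biopsies also held skeletal muscle RNA in unequal amounts (10 of 11 genes higher, median 1.84), with summed levels of 14.55 to 20.25 in polled, 14.80 to 18.16 in scurred and 12.15 to 17.90 in horned animals. Its defining markers ACTA1 and MYH1 were well above background in all 11 animals. The part of these markers in the differences of the FGF genes was not tested.

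**Figure D3:**
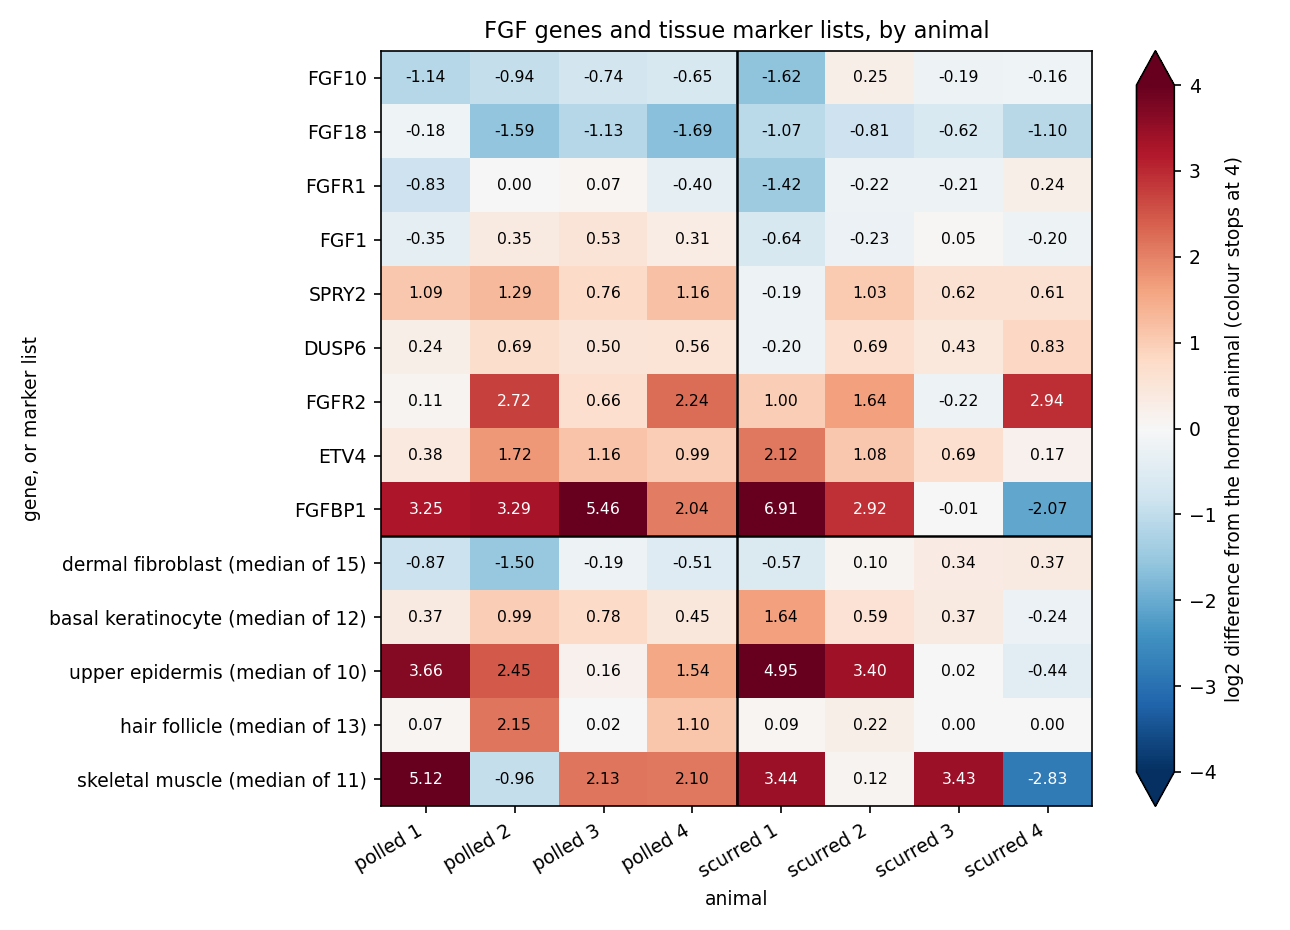
Log2 difference of each polled and scurred animal from the horned animal of its chip, for the FGF genes (above the line) and for the median of 5 lists of tissue markers (below it); red is higher, blue lower. FGF10, FGF18 and the dermal fibroblast list are blue in 4 of 4 polled animals, and FGFR2, ETV4, FGFBP1 and the basal keratinocyte and upper epidermis lists are red.

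Scurred animals were set against the same 3 horned animals, so their values share those animals with the comparison above. FGF18 was the ligand that stood lower on 4 of 4 chips, at −1.07, −0.81, −0.62 and −1.10, with levels of 10.40, 11.47, 11.21 and 11.24 in scurred replicates 1 to 4. Scurred replicate 2 lay just above horned replicate 1, and the others below all horned animals. Beside these FGF18 differences, the dermal fibroblast median was −0.57, 0.10, 0.34 and 0.37 on chips 1 to 4. The part of these markers was not tested. ETV4 stood higher on 4 of 4 chips, at 2.12, 1.08, 0.69 and 0.17, and its scurred levels of 8.54 to 10.20 did not overlap with the horned ones. In limma with Benjamini-Hochberg adjustment, 0 of 9 genes passed, against 0% of 15712 probes, and the adjusted p was 0.9998 for all 9. At an unadjusted p under 0.05 stood 2 of 9: FGFR2, at 0.97 (SE 0.402), against 1.6% of probes higher, and FGF18, at −0.78 (SE 0.269), against 2.13% lower. Leaving out 1 chip or animal gave 0.48 to 1.44 for FGFR2, with the unadjusted p no longer under 0.05 in 12 of 15 fits, and −0.90 to −0.55 for FGF18, with 5 of 15 such losses. FGFR2 also lost it in 4 of 8 other settings, among them the fits with no sex term and with no chip block. One sign on 4 of 4 chips was seen for 8.49% of probes higher and 9.71% lower, with levels above all horned levels for 1.91% and levels below them for 2.65%.

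The remaining genes varied within the scurred group. FGFR2 differed by 0.996, 1.64, −0.22 and 2.94 on chips 1 to 4, and FGFBP1 by 6.91, 2.92, −0.01 and −2.07. The FGFBP1 probe was dim in scurred replicate 3 (level 7.07) and in horned replicates 1 and 3 (7.18 and 7.30). On chip 3 both of these animals were thus dim, and on chip 1 the horned one was. FGFBP1 thus lay above the horned animal in scurred replicates 1 and 2 and below it in replicate 4. The median of the upper epidermis list ran the same way in scurred animals, at 4.95, 3.40, 0.02 and −0.44. It did not in polled animals, at 3.66, 2.45, 0.16 and 1.54, beside FGFBP1 at 3.25, 3.29, 5.46 and 2.04. The part of this list in the FGFBP1 values was not tested. In scurred animals SPRY2 stood at −0.19, 1.03, 0.62 and 0.61, and DUSP6 at −0.20, 0.69, 0.43 and 0.83. Both were lower only in scurred replicate 1. FGF10 stood at −1.62, 0.25, −0.19 and −0.16, where scurred replicate 1, not well above background, made most of the fitted −0.47 (SE 0.308). Without scurred replicate 1, which stood apart over all probes, the fit gave −0.11 for FGF10, 0.47 for ETV4, 0.44 for FGFBP1, −0.55 for FGF18, 0.88 for FGFR2, 0.73 for SPRY2 and 0.55 for DUSP6. In that fit FGF18 and FGFR2 no longer had an unadjusted p under 0.05, and SPRY2 and DUSP6 did.

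Between scurred and polled animals, FGF1 and SPRY2 were the genes with lower levels in scurred skin on 4 of 4 chips. FGF1 differed by −0.29, −0.58, −0.48 and −0.50, and its levels of 8.59 to 8.82 in scurred animals all lay below those of 8.87 to 9.42 in polled animals. The fit gave −0.51 (SE 0.167, 95% interval −0.90 to −0.12, adjusted p 0.793 in limma), and its unadjusted p was no longer under 0.05 in 5 of 15 fits that left out 1 chip or animal. SPRY2 differed by −1.28, −0.26, −0.14 and −0.56, with levels of 11.19 to 11.56 in scurred and 11.65 to 12.42 in polled animals, and a fitted −0.54 (SE 0.245, 95% interval −1.12 to 0.04), which was −0.98 without chip 2 and −0.33 without chip 1. With limma and Benjamini-Hochberg adjustment 0 of 9 genes passed, against 0% of probes, and 1 of 9, FGF1, had an unadjusted p under 0.05, against 3.09% of probes lower and 2.91% higher. Lower on 4 of 4 chips were 9.43% of probes and higher 9.55%, and groups without overlap were seen for 1.36% lower and 1.46% higher. FGF10 and FGF18 stood higher in the scurred animal on 3 of 4 chips, with fitted differences of 0.55 (95% interval −0.19 to 1.29) and 0.45 (−0.20 to 1.09). FGF10 turned to −0.33 without chip 2 and was 0.85 without scurred replicate 1. FGF18 was 0.72 without chip 2 and 0.25 with no sex term. For these ligands the scurred mean lay between the others: 7.23 ± 0.59 in scurred, 6.87 ± 0.23 in polled and 7.83 ± 0.30 in horned animals for FGF10, and 11.08 ± 0.47 in scurred, 10.86 ± 0.26 in polled and 11.89 ± 0.48 in horned animals for FGF18 (SD, n = 4, 4 and 3). The scurred and polled levels of both ligands overlapped. Dermal fibroblast markers stood higher in scurred than in polled animals in 15 of 15 genes (median 1.13), and their part in the values of the ligands was not tested. Scurred and polled animals were of opposite sex on every chip, so this contrast leans on the sex term.

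**Figure D4:**
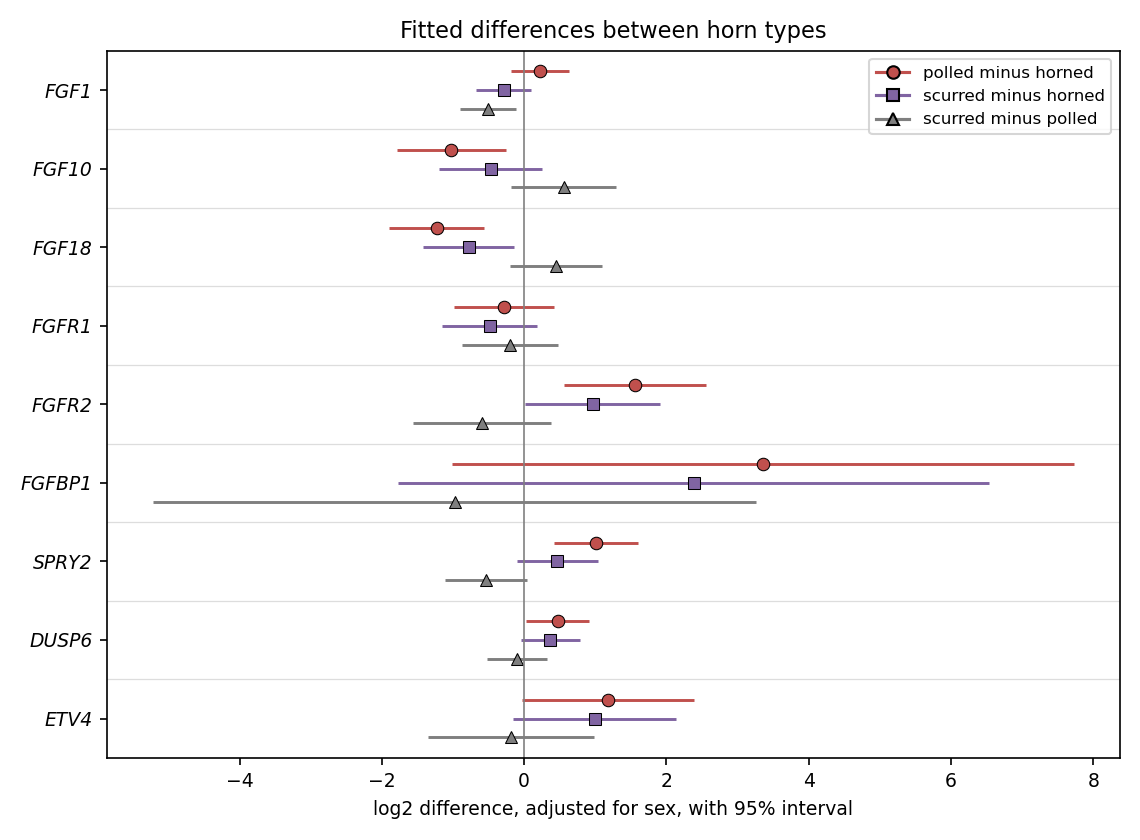
Fitted log2 difference of each gene with its 95% interval (horizontal axis), for polled minus horned, scurred minus horned and scurred minus polled, adjusted for sex with 11 animals in 1 fit. The intervals of FGF10, FGF18, FGFR2, SPRY2 and DUSP6 leave out 0 in polled minus horned, before any adjustment for the number of probes.

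The other genes of the pathway were read from 6 lists of 90 genes in all, of which 63 were tested on chips 1 to 4. In polled minus horned animals, 0 of 63 passed the adjusted p in limma and 3 higher and 5 lower had an unadjusted p under 0.05 (12.7%, against 9.3% of all probes). Those 8 were SDC4, EXT1 and DUSP4, higher, and FGF11, FIBP, SULF1, MAPK3 and SPRED1, lower, and the median difference was 0.01. Over all probes, 52.1% stood higher in this comparison. Of the other members of the FGF family, 8 of the 9 tested stood lower (median −0.20). Among them FGF13 (−0.00277, SE 0.388), FGF16 (−0.02, SE 0.113) and FGF3 (−0.02, SE 0.101) lay near 0. FGF11, an intracellular member of the family, had −0.57 (SE 0.151, adjusted p 0.469 in limma), lower on 4 of 4 chips, and FGF12, of the same kind, −0.20 (SE 0.102). FGF14 stood at 0.07. FGF4, FGF5, FGF6, FGF8, FGF19, FGF20 and FGF23 were on the array but too dim to be tested.

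Among the other receptors and binding proteins, 3 of 4 tested were higher, with FLRT3, a membrane protein that binds FGF receptors, at 0.57 (SE 0.373) and FLRT2 at 0.18. FIBP, an intracellular protein that binds FGF1, stood at −0.25 (SE 0.106). Of the 17 heparan sulfate genes, 7 stood higher and 10 lower. SDC4, a cell surface proteoglycan, stood at 0.66 (SE 0.188), higher on 4 of 4 chips. EXT1, which builds the sugar chain, stood at 0.32, higher on 3 of 4 chips. SULF1, an enzyme that trims sulfate from these chains and can lower FGF signalling, stood at −1.09 (SE 0.349), lower on 4 of 4 chips. EXT2, the partner of EXT1, stood at −0.43. Of the 16 adaptors and kinases, 7 were higher and 9 lower, with MAPK3 (the kinase ERK1) at −0.42 (SE 0.146), GAB1 at −0.35, MAP2K2 at 0.18 and NRAS at 0.27.

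The other feedback inhibitors stood higher in 6 of 8 genes (median 0.19). DUSP4, a nuclear phosphatase of MAP kinases, stood at 1.23 (SE 0.492), higher on 3 of 4 chips (−0.18 to 2.57). SPRY1, a relative of SPRY2, stood at 0.82 (SE 0.415), higher on 4 of 4 chips. SPRED1, a Sprouty-related inhibitor of RAS signalling, stood lower, at −0.51 (SE 0.156), on 4 of 4 chips, and DUSP7 stood at −0.03. Of the 9 other target genes, 8 stood higher (median 0.31) and 0 had an unadjusted p under 0.05 in limma. PHLDA1 was at 0.53, higher on 2 of 4 chips. ETV5, a close relative of ETV4, was at 0.31, higher on 3 of 4 chips, and ETV1, of the same group, at −0.28 (SE 0.164). In scurred minus horned animals, 2 higher and 1 lower of the 63 had an unadjusted p under 0.05 (4.76%, against 3.73% of all probes), and FGF11 stood at −0.45, SPRY1 at 0.28 and DUSP4 at 0.50.

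The FGF genes were also set against each other over the 11 animals, with values centred within the 3 connected sets of chips. FGFBP1 and ETV4 had a Pearson r of 0.87, SPRY2 and DUSP6 of 0.79, and FGF10 and FGF18 of 0.77. FGF18 ran against FGFR2 (r −0.82) and ETV4 (r −0.82). Of 15712 probes, those of named genes most like FGF18 were DYNC2LI1 (r 0.94), SMIM7 (0.93) and CCL19 (0.93), and those most like FGF10 were LAMB2 (0.98), SHC2 (0.97) and ANK2 (0.97). For SPRY2 they were CREBZF (0.98), OTUD1 (0.94) and TRGC6 (0.93), and for FGFR2 ZGPAT (0.90), PGRMC1 (0.89) and KIAA1217 (0.87). The centring did not remove horn type, so the differences between horn types given above enter these r values. The r values are thus not separate from those differences. These values describe 11 animals that share arrays, each name is the highest of many probes, and no test was made.

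The horn site was set against the control site of the same animal in the 2 animals measured. Polled replicate 3 and scurred replicate 2 gave differences of 0.03 and 0.95 for FGF10, −0.35 and 0.82 for FGF18, and 0.55 and −0.16 for FGFR1. FGF18 had levels of 10.83 at the horn site and 11.17 at the control site in the polled animal. In the scurred animal it had 11.51 at the horn site and 10.70 at the control site. The sign thus differed between the animals for FGF18 and FGFR1, with both dye orders of an animal giving the same sign.

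FGFR2 stood at 0.22 in polled replicate 3, where the dye orders gave −0.18 and 0.61. In scurred replicate 2 it stood at −1.41, where the dye orders gave −2.15 and −0.66, so its size there is uncertain. FGFBP1 stood lower at the horn site in both animals, at −0.23 and −0.60, and SPRY2 higher in both, at 0.29 and 0.08. ETV4 stood at 0.31 and −0.61. FGF1 stood at 0.36 and 0.22, with dye orders of opposite sign in each animal, and DUSP6 at 0.01 and −0.16, near 0 beside the difference between dye orders. In limma with Benjamini-Hochberg adjustment, 0 of 9 genes passed, against 0% of 15290 probes, and 0 of 9 had an unadjusted p under 0.05, against 2.65% of probes higher and 2.06% lower (4.71% in all). With median centring FGFBP1 stood at −0.80 and had an unadjusted p under 0.05, and DUSP6 stood at −0.44. With no filter on dim probes FGF1 had one too, at the same 0.29. With 2 animals the test has 1 residual degree of freedom of its own. Skeletal muscle markers differed between these sites, with a list median of 0.17 in the polled and 3.81 in the scurred animal. The hair follicle median was 0.01 in the polled and −1.19 in the scurred animal, beside FGFR2 at 0.22 and −1.41. The dermal fibroblast median was −0.09 in the polled and 0.57 in the scurred animal. Beside it stood FGF18 at −0.35 and 0.82 and FGF10 at 0.03 and 0.95. For the upper epidermis the median was −1.51 in the polled and 0.56 in the scurred animal, beside FGFBP1 at −0.23 and −0.60. The part of these markers in the FGF values was not tested. Of the other pathway genes, 1 higher and 4 lower of the 60 tested had an unadjusted p under 0.05 (8.33%).

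**Figure D5:**
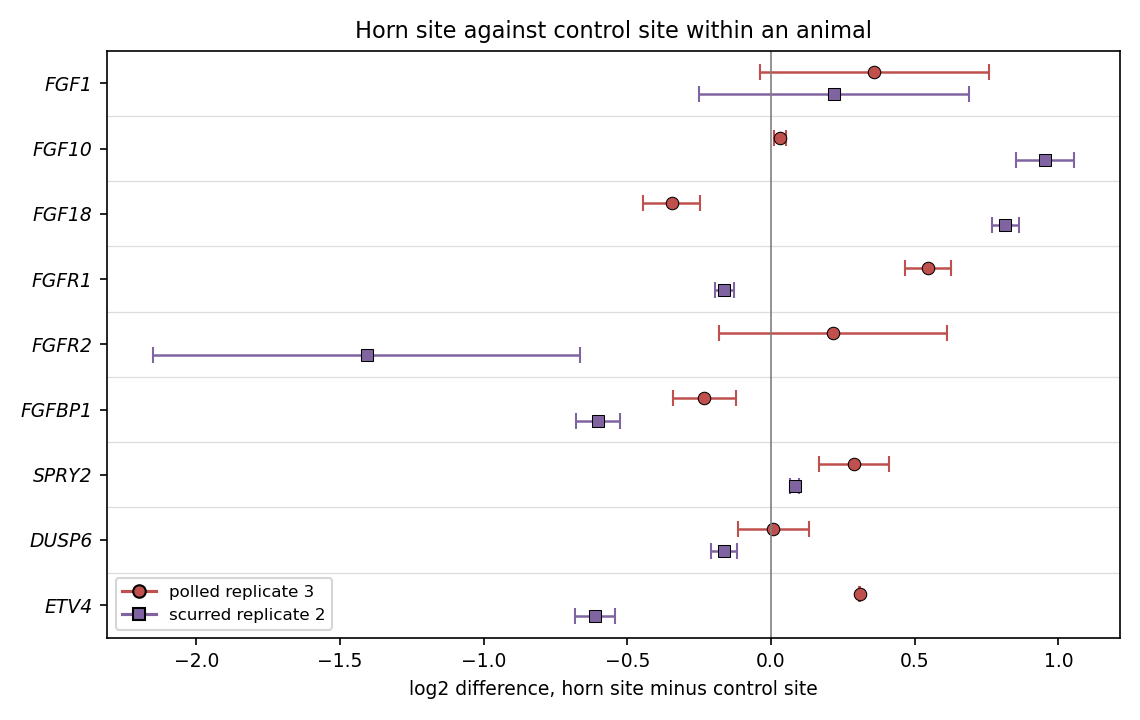
Log2 difference between horn site and control site (horizontal axis) in polled replicate 3 (circles) and scurred replicate 2 (squares), with ticks at the values of the 2 dye orders. FGF18, FGFR1 and ETV4 lie on opposite sides of 0 in the 2 animals, and FGFBP1 lies below 0 in both.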

How the data were processed

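The authors deposited 20 scanner files of two-colour Agilent arrays, per the file headers, with each spot's intensity in both dyes on a linear scale and a log10 ratio of red over green. Per the submitters' processing notes the software was Agilent Feature Extraction 9.5.1. The deposited series table holds the same log10 ratios, around 0, with 14 columns in that direction and 6 turned, and served as a check only. Here, the deposited mean intensities were corrected by normexp (offset 50) and loess in limma 3.58.1 (R 4.3.3, with the data.table package, version 1.17.8), spots of a probe were averaged and flagged spots left out, which gave log2 ratios. Arrays of chips 1 to 4 were reduced, with a dye term, to 1 value per animal. These entered 1 limma fit of 11 animals with horn type, sex and 3 blocks (chip 1, chip 3, and chips 2 and 4, which share a horned animal), leaving 5 residual degrees of freedom. Tests were two-sided, with Benjamini-Hochberg adjustment over 15712 probes well above background in at least 3 animals (on at least 0.5 of an animal's spots), and a threshold of 0.05. For the sites, 2 animals' mean was tested against 0 over 15290 probes. Levels are channels normalized separately (loess, then between arrays by Aquantile). The pairing by chip comes from the labels. As a check, the correlation between polled and scurred animals of 1 chip, after removing group means, was 0.237, 0.288, 0.423 and −0.0833 on chips 1 to 4. Samples were grouped by their labelled horn type, sex and site. Probes were named through identifiers, accessions or descriptions in the files, matched to RefSeq's gene table (ARS-UCD2.0) for names only, which gave 16108 of 21475 a symbol. Named are the 9 FGF genes, from each pathway list at most 2 higher and 2 lower genes of lowest p, the 3 probes most like each of 4 members, and the first markers of each tissue list. MSX2 and AIF1 were named after their values were seen. A list uses 1 probe per gene, the brightest. The members and lists were chosen with earlier results of these data known. The fit was tested on simulated data. The number of animals limits the precision. Alternatives changed the normalization, background correction, filter, flags, sex term and block, and left out each chip and animal.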

Additional observations from a re-analysis of the deposited data

Results flagged for a closer look

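On chip 1, FGF18 stood at −0.89 in scurred minus polled, below the positive values of 0.51 to 0.78 on the other 3 chips, and ETV4 stood at 1.74 there, above the negative values of −0.82 to −0.47 on the others. Each was far from the rest for a set of 4 chips, and both set scurred replicate 1, which stood apart over all probes, against polled replicate 1, which had the highest FGF18 and the lowest ETV4 level of the polled animals. The fitted FGF18 difference of 0.45 was 0.63 without scurred replicate 1 and 0.64 without polled replicate 1. Of 27 such sets (9 genes in 3 contrasts) these were the 2 that stood out, where chance alone marks about 1 in 20.

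Between horn site and control site, both arrays of polled replicate 3 ran against both arrays of scurred replicate 2 for FGF18, FGFR1 and ETV4. The difference of the polled minus the scurred animal was −1.16 for FGF18, 0.71 for FGFR1 and 0.92 for ETV4. With 1 animal of each kind, these differences were not tested.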

How the results depend on the processing

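The count of FGF genes past the adjusted p was 0 in every comparison and setting run. Over all probes, polled minus horned had 1 call, and 0 with median centring, with the deposited processed signals and with no replicate block, the fit that drops the pairing by chip. Leaving out 1 chip or animal gave 0 to 1. Scurred minus horned had 0 calls, 1 with median centring, and 0 to 1 with 1 chip or animal left out. Scurred minus polled had 0, 1 with no sex term, and 0 to 2 with 1 left out. Without the block, polled minus horned stood at −1.02 for FGF10, −1.22 for FGF18, 1.62 for FGFR2 and 0.98 for SPRY2. Median centring turned the site differences of FGF18 (−0.0741), FGFR1 (−0.14) and SPRY2 (−0.14), and the cause was not tested. With 1 chip or animal left out, a sign turned for FGFR1 in polled minus horned (−0.53 to 0.00159), FGF10 in scurred minus horned (−0.84 to 0.00884) and, in scurred minus polled, FGF10 (−0.33 to 0.85), FGFR1 (−0.59 to 0.0263), FGFBP1 (−2.64 to 1.96), DUSP6 (−0.52 to 0.0470) and ETV4 (−0.65 to 0.66). At the sites, each animal alone gave −0.35 to 0.82 for FGF18, −0.16 to 0.55 for FGFR1, −1.41 to 0.22 for FGFR2, −0.16 to 0.00836 for DUSP6 and −0.61 to 0.31 for ETV4. FGF genes at an unadjusted p under 0.05 in polled minus horned numbered 5 in the main fit, against 9.3% of all probes (1462 of 15712). They numbered 4 to 5 in the other settings. With 1 chip or animal left out they numbered 2 to 8, and all probes gave 243 to 2033. Those ranges are not matched fit by fit, so the count of a single fit cannot be set against its share of all probes. FGF10, dim in scurred replicate 1, was not tested when all animals had to be well above background.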
